A study of Mus musculus with 13 samples.

Results

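Titin is the giant elastic protein of striated muscle, and a single molecule runs from the Z-disc at the border of the sarcomere to the M-band at its centre. Along this path it is bound by smaller proteins. Telethonin, the product of Tcap, caps the amino-terminal ends of titin at the Z-disc, and the LIM protein of Csrp3 (muscle LIM protein) is found in the same region. The LIM proteins of Fhl1 and Fhl2 are known as partners of the spring region of titin in the I-band, though their binding in these muscles was not measured. Fhl2 is also known as an adaptor for metabolic enzymes. The myomesins (Myom1, Myom2 and Myom3) cross-link thick filaments and titin in the M-band, and obscurin-like 1 (Obsl1) joins myomesin to the carboxy-terminal end of titin there. These 8 genes were taken as a set by their symbols, from 17924 genes in the deposited tables, and were compared across muscles on the scale of the whole library and relative to the titin gene, Ttn, in the same library. All 8 passed the filter on low values and were tested.

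The libraries came from mice homozygous for mdm (muscular dystrophy with myositis), a spontaneous deletion in Ttn that removes part of the N2A region of the I-band, bred in a colony of the strain B6C3Fe a/a-Ttn mdm/J. RNA of whole muscles was sequenced as 5 libraries of extensor digitorum longus (EDL) from mice of 38 to 42 days, 5 of psoas from mice of 29 to 42 days and 3 of soleus from mice of 33 to 38 days. Every library carries the mdm deletion, and wild-type muscles are not analysed here, so each difference below is one between mdm muscles. The study's methods give fewer mice than libraries over all its muscles, so some libraries share an animal, but the labels do not say which. The p-values therefore measure the spread between libraries and take them as separate. Total counts ran from 9114176 to 48835209 per library. The RNA integrity number given by the study was in no psoas library above that of any EDL library. RNA integrity and muscle thus go together in that comparison, and its part in the differences and in the ratios to Ttn was not tested. The labels held against the fibre markers: 8 slow-fibre genes summed to 350050 to 414997 normalized counts in soleus, against 11411 to 57832 in EDL and 15429 to 66549 in psoas.

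On GRCm38, Tcap lies at chr11:98383811-98384953 and Csrp3 at chr7:48830398-48848033. Obsl1 lies at chr1:75479310-75506452 and Fhl2 on the same chromosome at chr1:43123074-43196984. The myomesin genes lie at chr17:71002633-71126856 (Myom1), chr8:15057653-15133541 (Myom2) and chr4:135759715-135815564 (Myom3). Fhl1 lies at chrX:56731787-56793346 and Ttn at chr2:76703980-76982547. All are protein coding. Their annotated exons differ widely in length, from 948 bases in Tcap and 1897 in Fhl2 to 10459 in Myom1 and 116825 in Ttn, so levels of different genes are compared only per kilobase of exon. No stretch of 75 bases, the length of the reads, was shared between any of these 9 genes. Myom1 shares 207 exon bases with Myl12a on the opposite strand and Ttn shares 453 with Gm13938, and Obsl1 shares 0.579% of its 75-base stretches with Gm15181. Reads in those stretches could have been counted for either gene.

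The sequence upstream of 2 of the genes, Fhl2 and Ttn, is shown. Fhl2 was called in 2 of the 3 comparisons, and Ttn is the gene to which the others were set. Tcap and Myom2 were also called, but no RefSeq promoter window was available for them. Each window holds the 250 bases before a start annotated by RefSeq on GRCm38.p6, on the reverse strand and written 5′ to 3′. Fhl2 is shown at chr1:43163962-43164211, before one of its 2 RefSeq starts, and Ttn at chr2:76982548-76982797. Capitals mark matches to an E-box, CANNTG, which myogenic factors bind, or to the MEF2 consensus. Both strands were searched, also for the MCAT motif CATTCC, and matches of different motifs did not overlap in these windows.
Fhl2: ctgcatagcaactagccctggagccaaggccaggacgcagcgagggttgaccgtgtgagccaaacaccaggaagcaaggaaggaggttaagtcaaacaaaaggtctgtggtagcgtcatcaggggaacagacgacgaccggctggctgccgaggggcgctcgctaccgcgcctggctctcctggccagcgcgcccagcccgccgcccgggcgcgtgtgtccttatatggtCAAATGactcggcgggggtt
Ttn: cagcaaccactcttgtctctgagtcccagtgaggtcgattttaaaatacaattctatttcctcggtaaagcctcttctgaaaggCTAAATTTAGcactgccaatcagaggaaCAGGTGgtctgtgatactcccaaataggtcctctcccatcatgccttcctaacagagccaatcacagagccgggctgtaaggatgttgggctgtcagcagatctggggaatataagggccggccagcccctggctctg
The Fhl2 window shown held 1 E-box at position -20 and the Ttn window 1 at position -138, counted back from the start, and 66.22% of 32851 RefSeq promoter windows of this length held at least 1. The window before the other Fhl2 start, at chr1:43196762-43197011, is not shown and held 3 E-boxes. The MEF2 consensus matched at position -166 of the Ttn window, and in 0.5084% of all windows. The MCAT motif, present in 12.64% of all windows, was in none of the 10 windows of Csrp3, Fhl1, Fhl2, Myom1, Myom3, Obsl1 and Ttn. These matches are a description of letters and show no binding.

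Per kilobase of exon, Tcap had the highest mean of the 9 genes in EDL, with 27184 ± 12044 (SD, n = 5) normalized counts per kilobase, and in psoas, with 8118 ± 4074 (SD, n = 5). In psoas it stood above Fhl1, the next by mean, in only 2 of 5 libraries. In soleus Fhl1 had the highest, with 14938 ± 665 (SD, n = 3), and stood above Tcap in all 3 libraries without overlap. Ttn itself came 4th in EDL and in soleus and 3rd in psoas. Obsl1 and Fhl2 were the lowest in every muscle, and the highest value of either, 391 for Fhl2 in soleus, was below the lowest value of the others, 553 for Myom2 in soleus. In EDL and psoas only Myom3 and Obsl1 were neighbours without overlap, although in EDL Tcap exceeded Fhl1, Fhl1 exceeded Csrp3 and Myom2 exceeded Myom1 within each of the 5 libraries. In soleus 6 of the 8 neighbouring pairs were apart, all but Csrp3 with Ttn and Myom1 with Myom3.

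This order depended on the length used. Per kilobase of coding sequence Fhl1, whose coding sequence is 969 of 3714 exon bases, had the highest mean in all 3 muscles, with 59501 ± 20393 in EDL, 28726 ± 9313 in psoas (SD, n = 5 each) and 57253 ± 2550 in soleus (SD, n = 3). Tcap, with 51438 ± 22790, 15361 ± 7708 and 22860 ± 2733, came after Fhl1 in EDL and after Fhl1 and Csrp3 in the others, and exceeded Fhl1 in 1 of 5 EDL libraries (EDL 3), 1 of 5 psoas libraries and 0 of 3 soleus libraries. Csrp3 then also stood above Ttn in psoas, and Fhl2 above Obsl1 in 2 of 5 EDL and 5 of 5 psoas libraries. Obsl1 and Fhl2 remained the lowest in every muscle by mean, and Myom2 stayed above Myom1 and Myom3 in EDL and psoas and below both in soleus.

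Per kilobase of exon, the lower end of the order differed between muscles. Myom2 stood above Myom1 and Myom3 in EDL and psoas, and below both in soleus. Fhl2 stood last in EDL, level with Obsl1 in psoas at 144 ± 23.1 against 146 ± 39.8 normalized counts per kilobase (SD, n = 5 each), and above it in all 3 soleus libraries at 325 ± 58.1 against 119 ± 32.0 (SD, n = 3 each). Among 17833 genes with a length, Fhl2 ranked 6439th in EDL, 3618th in psoas and 1915th in soleus, while Myom2 ranked 210th, 315th and 1007th.

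**Figure D1:**
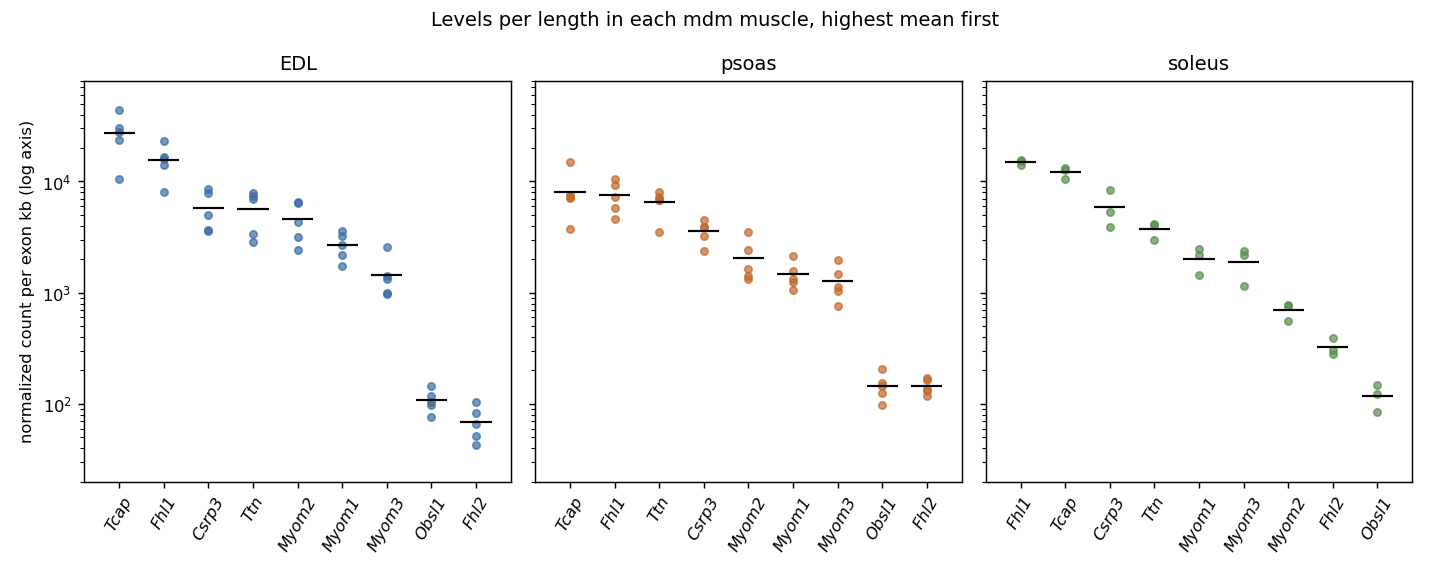
Normalized counts per kilobase of exon (log axis) of the 8 genes and of Ttn in each mdm muscle, ordered by their means. Points are libraries (5 EDL, 5 psoas, 3 soleus) and bars are means. Obsl1 and Fhl2 lie below all other genes in every muscle, and Myom2 moves below Myom1 and Myom3 in soleus.

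On the library scale 2 of the 8 genes were called between psoas and EDL, Tcap lower and Fhl2 higher in psoas. A call needed a Benjamini-Hochberg adjusted p under 0.01 in edgeR's quasi-likelihood test over 17069 genes and an absolute log2 fold change over 1. Of all genes tested, 4.93% were called in this comparison (415 with psoas higher and 426 with psoas lower), and blocking on the replicate number raised this to 1267 genes and kept both members. DESeq2 called these 2 and also Fhl1 and Myom2, against 9.35% of all genes. Between soleus and EDL 2 members were called, Fhl2 higher and Myom2 lower in soleus, against 0.978% of all genes, and the same 2 were called by DESeq2 against 3.73%. Between soleus and psoas edgeR called 0 of the 8, where 0.0762% of all genes were called. At an unadjusted p under 0.05, 3 of the 8 and 2163 of all genes passed in that last comparison, and DESeq2 called 2 members, Fhl2 and Myom2, against 1.01% of all genes. The 3 comparisons share libraries in pairs. The median log2 fold change of the 8 was -0.77 between psoas and EDL, -0.01 between soleus and EDL and 0.58 between soleus and psoas, where the medians over all genes were 0.02, -0.03 and -0.03. The test recovered 84% of genes changed 4-fold between psoas and EDL in simulated counts over 17069 genes, but 2% of those changed 2-fold, and 42% and 0% between soleus and EDL. Each share is of 50 changed genes. Fewer genes were changed in the simulation than were called in these 2 comparisons. The adjusted p limit was therefore harder to pass there, and the shares do not carry over to these data.

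**Figure D2:**
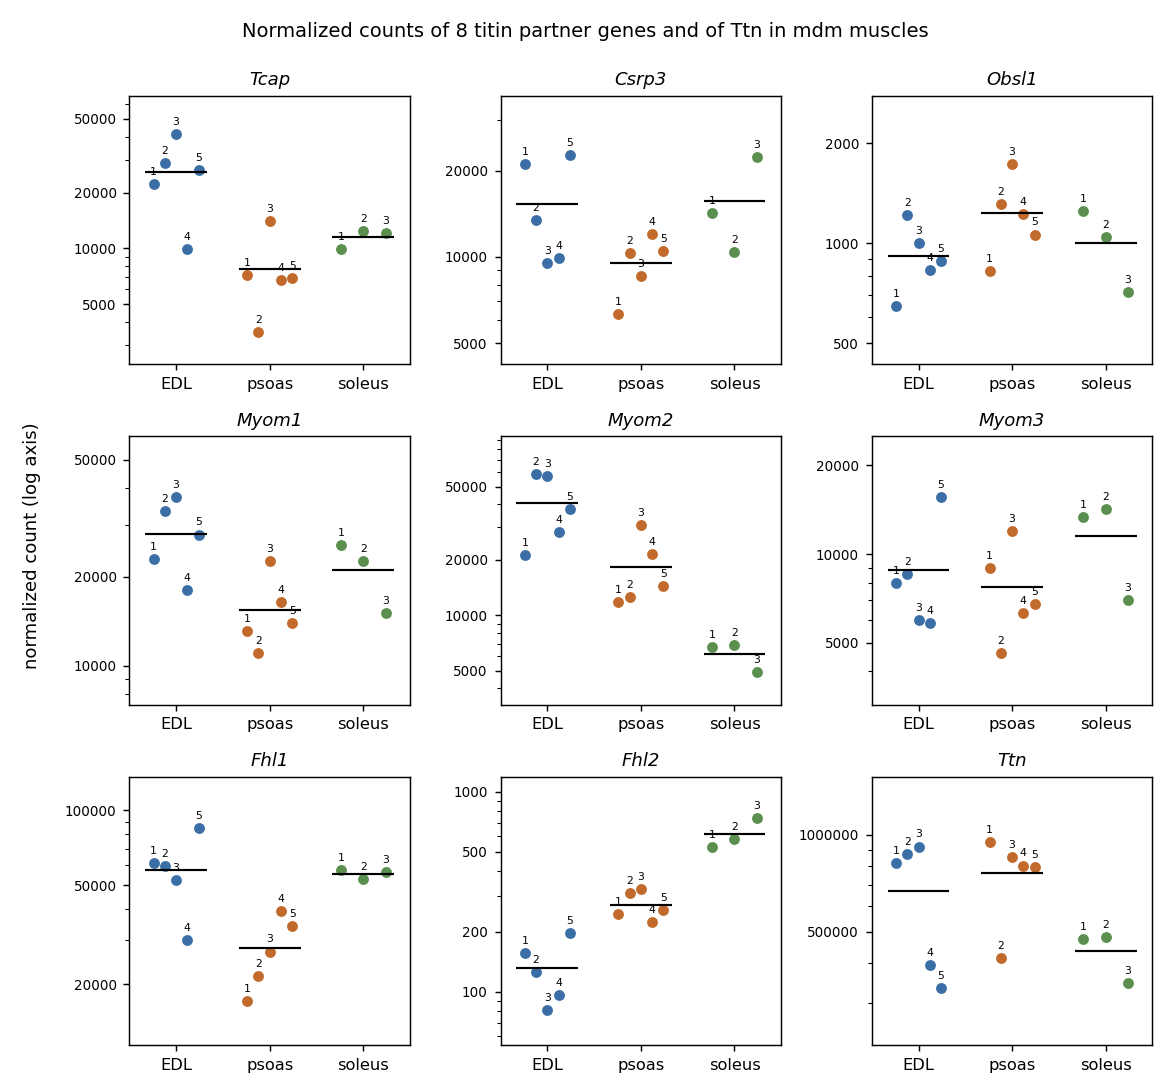
Normalized counts (log axis) of the 8 genes and of Ttn in each library. Points are libraries, numbered by replicate, and bars are means. Fhl2 separates all 3 muscles and Myom2 separates soleus from both others, while Tcap in psoas 3, at 14077, lies above EDL 4, at 9900.

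Tcap was the member called lower in psoas. Its normalized count was 22155, 28871, 41469, 9900 and 26458 in EDL 1 to 5 and 7158, 3550, 14077, 6757 and 6938 in psoas 1 to 5. Psoas 3 lay above EDL 4, so the muscles overlapped by 1 library on each side, and the other 4 libraries of each muscle were apart. Tcap was 3.36-fold lower in psoas, with a log2 fold change of -1.75 (SE 0.38, edgeR adjusted p = 0.00882). It was lower in psoas in 5 of 5 replicate pairs, by 0.55 to 3.02 on the log2 scale. These pairs share a replicate number and are not known to share an animal. In soleus it was 9884, 12409 and 12065, at the level of EDL 4, and differed from EDL by -1.17 (SE 0.45, edgeR adjusted p = 0.210). The call between psoas and EDL held near its limit: it was lost in 11 of 13 fits that each left out 1 library, with adjusted p up to 0.0258, and kept only without EDL 4 or without psoas 3. With the 2 muscles fitted alone the adjusted p was 0.0170, and with the 8 libraries of 38-day mice 0.0485, while the log2 fold change stayed between -2.08 and -1.51 over these fits.

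Csrp3, whose protein lies at the Z-disc and is known as a stress-responsive regulator, was not called in any comparison. It had 21065, 13415, 9548, 9884 and 22748 normalized counts in EDL, 6324, 10333, 8596, 11974 and 10493 in psoas and 14269, 10419 and 22231 in soleus. The muscles overlapped throughout, with EDL 1, EDL 5 and soleus 3 the high libraries. The log2 fold change was -0.68 between psoas and EDL (SE 0.30, edgeR adjusted p = 0.128) and 0.03 between soleus and EDL (SE 0.35, edgeR adjusted p = 0.982).

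The LIM protein genes Fhl1 and Fhl2 were far apart in level and differed in unlike ways. Fhl2 had 156, 126, 82, 97 and 196 normalized counts in EDL 1 to 5, 246, 312, 325, 224 and 256 in psoas 1 to 5 and 529, 582 and 741 in soleus 1 to 3. The 3 muscles did not overlap: each psoas library was above each EDL library and each soleus library above both. Of all genes, 6.48% were likewise apart with psoas higher than EDL, 5.33% with soleus higher than EDL and 4.97% with soleus higher than psoas. The log2 fold change was 1.05 between psoas and EDL (SE 0.23, edgeR adjusted p = 0.00791), 2.23 between soleus and EDL (SE 0.25, edgeR adjusted p = 0.000515) and 1.18 between soleus and psoas (SE 0.25, edgeR adjusted p = 0.0467). The first and second were called and the third was not. The deposited counts behind the lowest values were small, 41 reads in EDL 3 and 89 in EDL 4.

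The soleus difference of Fhl2 was called in 13 of 13 fits that each left out 1 library, with adjusted p up to 0.00455, and its log2 fold change was 2.14 within label code T4 and 2.43 within T6. It was lost in 38-day mice, with 1 soleus library, at 2.37 and an adjusted p of 0.108 by edgeR. The psoas difference was called in only 2 of those 13 fits, those without EDL 5 or without soleus 3, and its adjusted p reached 0.0232 without psoas 2. It was also lost when the label code was a block (adjusted p = 0.0109), with the 2 muscles alone (0.0159), without EDL 4 and 5 (0.0110) and in 38-day mice (0.107), where the log2 fold change was 0.88. In all 5 replicate pairs Fhl2 was higher in psoas, by 0.39 to 1.99 on the log2 scale.

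Fhl1, an X-linked gene of high level in striated muscle, had 61301, 59565, 52303, 30021 and 85091 normalized counts in EDL, 17074, 21610, 27022, 39197 and 34272 in psoas and 57470, 52714 and 56252 in soleus. Every soleus library was above every psoas library, a separation that 4.97% of all genes showed in this direction, whereas EDL 4 fell inside the psoas range. The log2 fold change was -1.05 between psoas and EDL (SE 0.30, edgeR adjusted p = 0.0255) and 1.002 between soleus and psoas (SE 0.33, edgeR adjusted p = 0.227), neither of them called by edgeR. DESeq2 called the first with an adjusted p of 0.00170. Per kilobase, Fhl1 exceeded Fhl2 by 158 to 327 times in EDL, 35.3 to 89.3 times in psoas and 38.8 to 55.5 times in soleus, and per kilobase of coding sequence by 268 to 553, 59.8 to 151 and 65.6 to 93.8 times.

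Of the M-band genes, Myom2 was the one called. Its product is the myomesin typical of fast fibres. It had 21341, 58466, 56974, 28335 and 37904 normalized counts in EDL, 11838, 12479, 30996, 21394 and 14457 in psoas and 6676, 6914 and 4898 in soleus. All 3 soleus libraries lay below every other library, an arrangement shown by 5.72% of all genes against EDL and 5.19% against psoas, while psoas and EDL overlapped. Myom2 was 6.59-fold lower in soleus against EDL, a log2 fold change of -2.72 (SE 0.45, edgeR adjusted p = 0.00560). Between soleus and psoas it was -1.56 (SE 0.42, edgeR adjusted p = 0.132), and between psoas and EDL -1.16 (SE 0.35, edgeR adjusted p = 0.0319). The soleus call against EDL was lost in 6 of 13 fits that each left out 1 library (EDL 2, 3 or 5, or any soleus library), with adjusted p up to 0.0343, and in 38-day mice, with 1 soleus library, at 0.266. Within label codes the difference was -3.11 in T4 and -2.74 in T6.

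Myom1, which is made in all striated muscle, had 22973, 33547, 37464, 18061 and 27844 normalized counts in EDL, 13138, 11052, 22594, 16461 and 13988 in psoas and 25602, 22620 and 15060 in soleus. Its log2 fold change between psoas and EDL was -0.86 (SE 0.27, edgeR adjusted p = 0.0406), lower in 5 of 5 replicate pairs and not called. Myom3, the myomesin known from slow and intermediate fibres, had 7952, 8580, 5977, 5835 and 15653 in EDL, 8952, 4634, 11967, 6319 and 6775 in psoas and 13313, 14227 and 6989 in soleus. The muscles overlapped for Myom3, and its log2 fold changes of -0.19, 0.39 and 0.58 had adjusted p of 0.733, 0.698 and 0.536 by edgeR. Obsl1 had 649 to 1217 normalized counts in EDL (median 885), 824 to 1733 in psoas (median 1227) and 715 to 1253 in soleus (median 1044). It was higher in psoas in 5 of 5 pairs, by 0.11 to 0.79 on the log2 scale, and its log2 fold change of 0.42 (SE 0.24, edgeR adjusted p = 0.224) was not called.

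**Figure D3:**
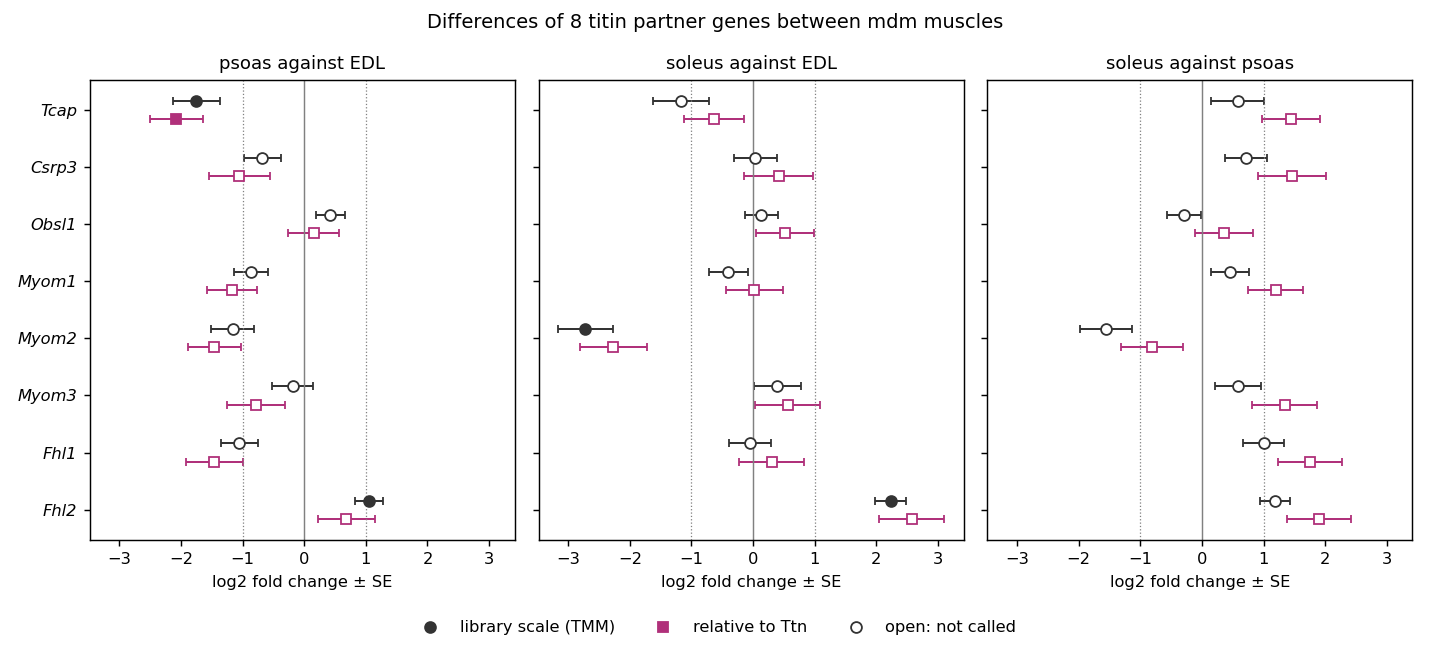
Log2 fold changes of the 8 genes between mdm muscles, with bars of 1 standard error, on the library scale (circles) and relative to Ttn (squares). Filled symbols passed both limits of a call, and dotted lines mark an absolute log2 fold change of 1. Tcap, Myom2 and Fhl2 hold all the filled symbols.

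The mix of the 3 myomesin genes was read within each library, per kilobase of exon, so that depth cancels. Myom2 made up 40.7% to 58.8% of it in EDL, 32.8% to 48.0% in psoas and 13.9% to 17.6% in soleus. Myom3 made up 8.99% to 27.2% in EDL, 20.8% to 36.4% in psoas and 36.7% to 44.5% in soleus, so that soleus held the highest Myom3 share and the lowest Myom2 share of all libraries. The Myom1 share was 27.9% to 37.1% in EDL, 28.3% to 32.7% in psoas and 40.8% to 45.7% in soleus. Myom2 was the largest of the 3 in every EDL library and in 4 of 5 psoas libraries. In psoas 1, from the youngest mouse at 29 days, Myom3 was the largest with 36.4%. By coding length Myom2 was the largest in all 5 psoas libraries as well, and Myom3 was the smallest of the 3 in psoas 1, with 28.0% against 35.5% for Myom1 and 36.5% for Myom2. Soleus still held the highest Myom3 shares, 28.2% to 35.1%, and the lowest Myom2 shares, 15.6% to 19.4%.

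Tested with the Myom1 count of a library as its size, Myom2 was called between soleus and EDL, lower in soleus by a log2 fold change of -2.26 (SE 0.30, edgeR adjusted p = 0.00133), where 0.305% of all genes were called and 2.03% were, like Myom2, apart with every soleus library lower. This call was lost only without soleus 1 or soleus 2, with adjusted p up to 0.0183, and in 38-day mice (0.208). Between soleus and psoas the ratio of Myom2 to Myom1 differed by -1.95 (SE 0.30, edgeR adjusted p = 0.0124) and was not called, with 0.0352% of all genes called, although reads of Myom2 per Myom1 read were 0.261 to 0.325 in soleus and 0.901 to 1.37 in psoas. Such a separation with soleus lower was shown by 10.1% of all genes. The ratio of Myom2 to Myom1 differed by -0.31 between psoas and EDL (SE 0.24, edgeR adjusted p = 0.282). That of Myom3 to Myom1 differed by 0.60, 0.71 and 0.11 in the 3 comparisons, none called, with adjusted p of 0.116, 0.369 and 0.873 by edgeR. On this scale the median of all genes moved by 0.85, 0.33 and -0.51, and between psoas and EDL 15.8% of all genes were called, 15.5% with psoas higher and 0.322% with psoas lower, so no count of the other members was read from it.

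**Figure D4:**
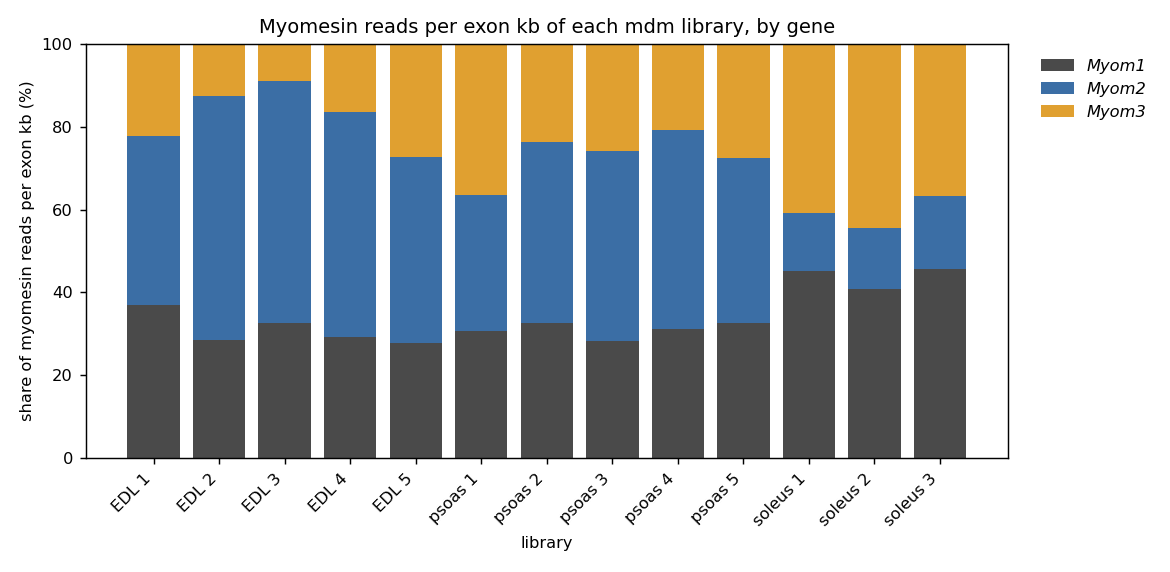
Shares of Myom1, Myom2 and Myom3 in the myomesin reads per kilobase of exon of each mdm library (percent, stacked to 100). Myom2 takes 13.9% to 17.6% in the 3 soleus libraries and at least 32.8% in the others.

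Ttn itself varied between libraries of 1 muscle. It had 816224, 870222, 920097, 394844 and 333226 normalized counts in EDL, 947475, 414645, 854359, 802927 and 793125 in psoas and 474605, 482522 and 346264 in soleus. EDL 4, EDL 5 and psoas 2 thus lay at the level of soleus and below the rest of their own muscles. Ttn was not called between muscles, with log2 fold changes of 0.19, -0.62 and -0.80 and adjusted p of 0.752, 0.550 and 0.449 by edgeR. A ratio to Ttn therefore carries this spread of the denominator. Across all genes the median log2 fold change relative to Ttn was -0.29 between psoas and EDL, 0.36 between soleus and EDL and 0.68 between soleus and psoas, so members are to be read against these shifts. On this scale 43 genes were called with psoas above EDL and 159 with psoas below it, where the library scale gave nearly even numbers.

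Relative to Ttn, Tcap was the single member called, lower in psoas than in EDL, in a comparison in which 1.18% of all genes were called. Between soleus and EDL edgeR called 0 members, against 0.287% of all genes, and between soleus and psoas 0, against 0.217%, while 2 and 6 members had an unadjusted p under 0.05 there, as had 1787 and 3481 of all genes. Per 1000 Ttn reads there were 27.1, 33.2, 45.1, 25.1 and 79.4 Tcap reads in EDL 1 to 5 and 7.55, 8.56, 16.5, 8.42 and 8.75 in psoas 1 to 5. The muscles did not overlap on this scale, which in this direction held for 3.70% of all genes. EDL 4 was low in Ttn as well as in Tcap. The ratio was 4.22-fold lower in psoas, a log2 fold change of -2.08 (SE 0.43, edgeR adjusted p = 0.00633), against the shift of -0.29 of all genes, and the ratio was lower in psoas in 5 of 5 pairs. The call was lost without EDL 3, EDL 5, psoas 1, psoas 2, psoas 4 or psoas 5, each alone, with adjusted p up to 0.0227, without EDL 4 and 5 together (0.0119) and in 38-day mice (0.0624). In soleus there were 20.8, 25.7 and 34.8 Tcap reads per 1000 Ttn reads, all above the psoas libraries. That separation was shown by 21.5% of all genes, and the difference of 1.45 (SE 0.47, edgeR adjusted p = 0.151) was not called. Blocking on the replicate number called 389 genes between psoas and EDL in place of 202, Tcap among them.

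Fhl2 relative to Ttn was 0.191, 0.144, 0.0887, 0.245 and 0.589 reads per 1000 Ttn reads in EDL, 0.260, 0.753, 0.381, 0.279 and 0.323 in psoas and 1.12, 1.21 and 2.14 in soleus. Soleus was above all other libraries, as were 8.28% of genes against EDL and 21.5% against psoas, while EDL 5 lay inside the psoas range. The log2 fold change between soleus and EDL was 2.58 (SE 0.53, edgeR adjusted p = 0.0127), past the fold limit but not the p limit. Of 19 alternative settings 6 called this difference and 13 did not. It was largest, at 3.38 (edgeR adjusted p = 0.000769), without EDL 4 and 5, the highest EDL libraries on this scale. That fit was chosen after seeing the data. Between psoas and EDL the log2 fold change was 0.68 (SE 0.46, edgeR adjusted p = 0.411), so the psoas call on the library scale was not met relative to Ttn. Myom2 relative to Ttn was 26.1 to 114 reads per 1000 in EDL, 12.5 to 36.3 in psoas and 14.1, 14.3 and 14.1 in the 3 soleus libraries, where it varied least, and all soleus values lay below all EDL values, as for 1.42% of genes. Its log2 fold change between soleus and EDL was -2.26 (SE 0.54, edgeR adjusted p = 0.0329), not called. Of 19 alternative settings only the label code block called it, with an edgeR adjusted p of 0.000846, and 18 did not.

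Fhl1 and Myom1 were also apart relative to Ttn, with psoas below EDL, as for 3.70% of all genes, and below soleus, as for 21.5%. Fhl1 reads per 1000 Ttn reads were 56.8 to 255 in EDL (median 75.1), 18.0 to 52.1 in psoas (median 43.2) and 109 to 162 in soleus (median 121). Myom1 reads were 28.1 to 83.6 in EDL (median 40.7), 13.9 to 26.7 in psoas (median 20.5) and 43.5 to 53.9 in soleus (median 46.9). Psoas lay below both other muscles for these genes, but with adjusted p of 0.0714 and 0.0947 against EDL and 0.113 and 0.199 against soleus by edgeR, none of the 4 differences was called. Myom3 was apart with soleus, at 20.2 to 29.5 reads per 1000 Ttn reads, above psoas, at 7.87 to 14.0, and was not called either. For Csrp3, Myom3 and Obsl1 psoas overlapped EDL. Csrp3 ran from 6.67 to 24.9 in psoas against 10.4 to 68.3 in EDL, Myom3 from 7.87 to 14.0 against 6.50 to 47.0 and Obsl1 from 0.869 to 3.17 against 0.795 to 2.65 reads per 1000 Ttn reads. Compared per kilobase within a library, Tcap exceeded Ttn in all EDL and soleus libraries, with ratios of 3.09 to 9.78 and 2.57 to 4.29, and in psoas the ratio was 0.931 to 2.03. By coding length it was 1.59 to 3.47 in psoas, above 1 in each library.

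**Figure D5:**
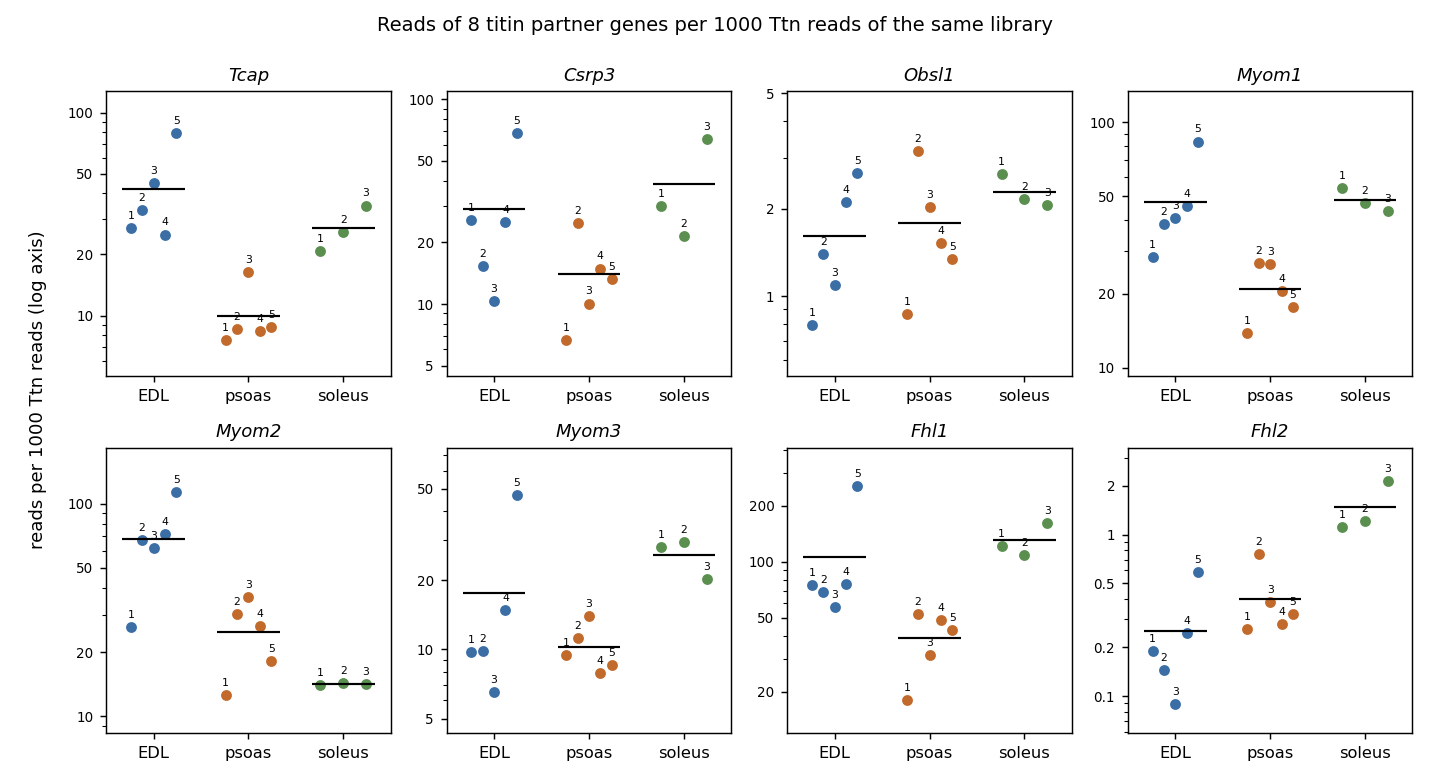
Reads of each gene per 1000 Ttn reads of the same library (log axis). Points are libraries, numbered by replicate, and bars are means. Tcap, Myom1 and Fhl1 in psoas lie below all EDL and soleus libraries, and EDL 5 is the highest EDL library for every gene.

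Within label codes, which are letters and numbers of the labels whose meaning is not given, the directions of the called differences held. Between psoas and EDL Tcap differed by -3.02 in T4, -1.56 in T5 and -1.24 in T6 on the log2 scale, and Fhl2 by 1.31, 1.99 and 0.80. Relative to Ttn, Tcap differed by -1.95, -1.45 and -2.38, while Fhl2 differed by 2.38, 2.10 and -0.34, so that its sign turned in T6, which holds EDL 4 and EDL 5. T4 and T5 hold 1 EDL and 1 psoas library each, and these values have no test.

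Other genes of the same zones were read from lists of titin partners and neighbours, 37 genes in all, of which 36 were tested. Between psoas and EDL 0 of them were called higher and 6 lower, all on the library scale by edgeR, where 2.50% of all genes were called lower. At the Z-disc 1 of 16 was lower, Myoz1 (a calsarcin of fast fibres), with 11036 to 24886 normalized counts in EDL and 966 to 4973 in psoas and a log2 fold change of -2.24 (adjusted p = 0.00317). In the I-band 2 of 9 were lower, the ankyrin repeat genes Ankrd2 (-2.18, adjusted p = 0.00545) and Ankrd23 (-1.88, adjusted p = 0.00533), whose proteins bind the N2A region of titin. In the M-band 2 of 9 were lower, the muscle creatine kinase Ckm (-1.67, adjusted p = 0.00356) and the ubiquitin ligase Trim54 (-1.36, adjusted p = 0.00225). Of the 2 myosin-binding protein C genes tested, Mybpc2, the fast form, was lower (-3.01, adjusted p = 0.00468). The list medians were -0.47 at the Z-disc, -0.63 in the I-band and -0.45 in the M-band, against 0.02 over all genes.

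Between soleus and EDL, where 0.445% of all genes were called lower, 2 of the 36 were lower and 0 higher, Myoz1 (-3.79, edgeR adjusted p = 0.00188) and Mybpc2 (-5.30, edgeR adjusted p = 0.00425). Where no gene of a zone was called, the smallest adjusted p were those of Ankrd23 (-1.95, edgeR adjusted p = 0.0283) and Smyd2 (-1.12, edgeR adjusted p = 0.0786) in the I-band and of Ckm (-1.87, edgeR adjusted p = 0.0123) and Cmya5 (-1.65, edgeR adjusted p = 0.0574) in the M-band. Between soleus and psoas 0 of the 36 were called. Myoz2, the calsarcin of slow and cardiac muscle, came nearest at the Z-disc with 1.52 (edgeR adjusted p = 0.0489), followed by Pdlim5 with 0.97 (edgeR adjusted p = 0.121). Ankrd2 (1.76, edgeR adjusted p = 0.129) and Palld (-0.88, edgeR adjusted p = 0.183) came nearest in the I-band, Trim54 (0.67, edgeR adjusted p = 0.290) and Trim55 (-0.64, edgeR adjusted p = 0.315) in the M-band, and Mybpc2 (-2.29, edgeR adjusted p = 0.177) and Mybpc1 (-0.05, edgeR adjusted p = 0.976) in the A-band.

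Some markers of fibre types and of other cells also differed between the muscles, and others did not. The 8 fast-fibre genes summed to 965568 to 2151565 normalized counts in EDL, 200320 to 585527 in psoas and 87792 to 123512 in soleus, and the 3 muscles did not overlap. Of the 8, 4 were called lower in psoas and 5 lower in soleus than in EDL, where 2.50% and 0.445% of all genes were. A further list of 8 fibre genes shares Myh1, Myh4 and Tnnt3 with the fast-fibre list and Ckm with the M-band list. Of that list Ckm, Mylpf, Myh4 and Tnnt3 were called lower in psoas, and Myh1, Myh4 and Tnnt3 in soleus. Only Mylpf of these was in no other list. Higher in soleus than in EDL were 4 of 8 slow-fibre genes, against 91 of all 17069 genes. Between psoas and EDL, 415 of the 17069 were called with psoas higher. The 6 Schwann cell genes summed to 1298 to 2591 in EDL, 4309 to 31339 in psoas and 2772 to 7142 in soleus, with Mbp, Pmp22 and Prx among those called higher in psoas than in EDL. The 6 adipocyte genes summed to 9146 to 27996 in EDL, 14320 to 37122 in psoas and 53980 to 83251 in soleus, with Adipoq and Cfd called higher in soleus than in EDL. The 6 smooth muscle genes summed to 1384 to 3102 in EDL, 2576 to 10324 in psoas and 2442 to 4396 in soleus, with Acta2 called higher in psoas than in EDL. The 6 genes of regenerating fibres summed to 37420 to 68822 in EDL, 70085 to 147674 in psoas and 61451 to 182063 in soleus. Of these, Myod1 and Myl4 were called higher in psoas than in EDL. Myh8 of the same list was called lower in soleus than in both other muscles. None of these marker genes was at 0 in all libraries of a muscle. The 6 fibroblast, 6 macrophage and 6 endothelial genes had 0 calls by edgeR in any comparison, and their summed ranges overlapped between the muscles. The part of these markers in the differences of Tcap, Fhl2 and Myom2 was not tested. In whole muscle a smaller share of one kind of fibre and less RNA per fibre cannot be told apart.

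The 8 genes did not vary as 1 group over the 13 libraries. The Pearson correlation of log2 normalized counts was 0.91 between Tcap and Myom1 and 0.81 between Csrp3 and Fhl1, and -0.87 between Fhl2 and Myom2, which ran in opposite order through the muscles. Csrp3 and Ttn correlated by -0.49 and Myom2 and Ttn by 0.42. These values are over 13 libraries that fall into 3 muscles, share depth and scaling, and are a description.

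The genes most like a member over all 17069 genes tested were named by the same measure. For Tcap they were Ankrd28, Art5 and Fxyd1 (r of 0.96 to 0.97), and for Csrp3 Tnfrsf12a, Nup37 and Tmem204 (0.89 to 0.90). Obsl1 was closest to Rtl6, Isg20l2 and Zfp365 (0.88 to 0.92) and Myom1 to Mfn1, Kcmf1 and Psmd12 (0.96 to 0.97). Myom2 was closest to Capn1, Cacng1 and Myh1, a fast myosin heavy chain (0.94 to 0.95), and Fhl1 to Mdh1, Pdlim5 and Plpbp (0.93 in each). Fhl2 was closest to Cp, Atp2a2, the calcium pump of slow and cardiac muscle, and Tecrl (0.90 to 0.94). With 13 libraries and this many genes, high values are found for any gene, and nothing is read from them about function.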

How the data were processed

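The authors extracted total RNA from whole muscles, made stranded libraries, read them in pairs of 75 bases and aligned the reads to GRCm38. Their processing notes name Trimmomatic 0.32 and TopHat2 2.1.1. The deposited counts are reads per gene, and the deposited normalized signal is that count divided by a DESeq2 size factor of 0.5023 to 2.417, computed by the authors with libraries not used here. The overlap mode and the strand setting of the counting are not given in the sources used here. All 17924 genes of the tables are named, and GENCODE M21 gave a symbol for 17833. Pairs of libraries of a muscle differed by more than sampling noise (smallest chi-square per degree of freedom 57.0).

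Counts were tested with edgeR 4.0.16 in R 4.3.3: TMM normalization, 1 quasi-likelihood fit of the muscle over 13 libraries, 17069 genes whose normalized count reached 10 in 3 or more libraries, adjusted by Benjamini-Hochberg. Standard errors are the fold change over the square root of F. For ratios the Ttn or Myom1 count of a library replaced its size (17068 genes). The study fitted its sequencing runs too, which the labels do not name. The code was tested on simulated data. Lengths are unions of exons, and coding lengths are the longest coding sequence in GENCODE M21. Alternatives used DESeq2 1.42.0 and limma 3.58.1, and leaving out EDL 4 and 5 or keeping 38-day mice was chosen after seeing the data. Correlations are of log2(normalized count + 1). Members of the set and all lists were chosen with earlier results of these data known. Named genes are the 8 members, Ttn, list genes called or, where none was, the 2 with the smallest adjusted p, and the 3 genes most like each member (those of Myom3 are not reported here).

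Same-numbered EDL and psoas libraries deviated together from the means of their muscles (r = 0.407, 0.370, 0.316, 0.289 and 0.371 for replicates 1 to 5, limit 0.1). Pairs in this text are libraries of the same number and are not known to come from 1 animal. EDL 1 and psoas 1 came from mice of 38 and 29 days, so that pair was not 1 animal, although its r was the highest. The pairs of replicates 2 to 5 each share a label code. Where a code holds only 1 EDL and 1 psoas library, the correlation cannot tell a shared animal from a shared code. EDL 4, EDL 5, psoas 4 and psoas 5 all carry the same code, so the code does not set these pairs apart. For replicates 4 and 5 the best-correlated partner was still the library of the same number (r = 0.289 and 0.371). Whether these pairs share an animal was not tested.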

Additional observations from a re-analysis of the deposited data

Results flagged for a closer look

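Over 34 groups of 5 libraries (8 genes and Ttn, as normalized counts or per 1000 Ttn reads, in EDL and in psoas), 7 held a library whose gap to the nearest other library, divided by the whole range, passed Dixon's critical value of 0.71 for 5 samples. Chance flags about 1 in 20 groups, or 1.7 of 34, if values are normally distributed, which was not tested for these untransformed counts and ratios. The groups are also not independent, since 5 of the 7 share Ttn as their denominator.

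EDL 5 stood apart in 4 of them. It had 68.3 Csrp3 reads per 1000 Ttn reads, against 10.4 to 25.8 in the other EDL libraries. It had 47.0 Myom3 reads per 1000 Ttn reads, against 6.50 to 14.8, and 15653 normalized counts of Myom3, against 5835 to 8580. It had 255 Fhl1 reads per 1000 Ttn reads, against 56.8 to 76.0. The normalized Ttn count of EDL 5, 333226, was the lowest of all 13 libraries.

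Psoas 2 stood apart in 2. Its normalized Ttn count was 414645, against 793125 to 947475 in the other psoas libraries, and it had 0.753 Fhl2 reads per 1000 Ttn reads, against 0.260 to 0.381. Psoas 3 had 16.5 Tcap reads per 1000 Ttn reads, against 7.55 to 8.75 in the other psoas libraries. The cause of these values was not tested.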

How the results depend on the processing

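On the library scale psoas and EDL gave 2 called members and 841 called genes. DESeq2 gave 4 and 1586, the 2 muscles alone 0 and 557, the label code block 1 (Fhl2 lost) and the replicate block over EDL and psoas 1267 genes with both members. Without EDL 4 and 5 there were 1 member (Tcap) and 446 genes, and in 38-day mice, of which 8 libraries remain, 0 and 10. Between soleus and EDL, with 2 members and 167 genes, DESeq2 called 633 genes, the label code block 86, the replicate block 1 member (Myom2 lost, adjusted p = 0.0130) and 38-day mice 0 members and 1 gene. Between soleus and psoas, with 0 members and 13 genes, DESeq2 gave 2 and 171, the label code block 6 genes, the 2 muscles alone 8, the fit without EDL 4 and 5 21 and 38-day mice 1.

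Relative to Ttn, psoas and EDL gave 1 member and 202 genes, with the label code block 396 genes, with the replicate block 389, and without EDL 4 and 5 0 members and 87 genes. In 38-day mice 0 members were called. Between soleus and EDL, with 0 members and 49 genes, the label code block gave 2 members (Fhl2 and Myom2) and 166 genes, the replicate block 1 (Fhl2) and 301, limma on the log2 ratio 1 (Fhl2) and 83, the fit without EDL 4 and 5 1 (Fhl2) and 381, and 38-day mice 30 genes. Between soleus and psoas, with 0 members and 37 genes, the label code block gave 139 genes, the replicate block 2 members (Fhl2 and Fhl1) and 442 genes, limma 57 genes and the fit without EDL 4 and 5 161. Myom2 relative to Myom1 was -1.99 between soleus and psoas with the label code block, then called, and -2.11 between soleus and EDL in 38-day mice, then not called. The replicate numbers of soleus were not taken as pairs: deviations of soleus 1 and 2 correlated by 0.11 and 0.42 with EDL 1 and 2 and by 0.16 and 0.14 with psoas 1 and 2, each its best partner, but those of soleus 3 by -0.16 with EDL 3 and -0.30 with psoas 3. The cause of these shifts was not tested.

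Leaving out 1 library at a time gave 0 to 1 called members between psoas and EDL and 317 to 802 genes, 1 to 2 members and 19 to 182 genes between soleus and EDL, and 0 members and 3 to 21 genes between soleus and psoas. Relative to Ttn the ranges were 0 to 1 member and 89 to 241 genes, 0 to 1 and 21 to 109, and 0 and 18 to 67. Myom2 relative to Myom1 then ran from -2.38 to -2.17 between soleus and EDL, and Myom3 relative to Myom1 from -0.022 to 0.24 between soleus and psoas.

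Signs turned only for differences that were not called. On the library scale these were, between soleus and EDL, Csrp3 (-0.0040, -0.093 and -0.092 without EDL 2, 3 or 4, with a range of -0.30 to 0.26 over single libraries left out, the lowest without soleus 3), Obsl1 (-0.069 with the label code block, -0.050 to 0.33 over single libraries, the lowest without soleus 1, and -0.32 in 38-day mice), Myom3 (-0.44 in 38-day mice) and Fhl1 (0.11 with the replicate block, -0.22 to 0.13 over single libraries, the highest without EDL 5), and, between psoas and EDL, Myom3 (-0.39 to 0.12 over single libraries, the highest without EDL 5, and 0.034 without EDL 4 and 5) and Ttn (-0.20 without EDL 4 and 5). Relative to Ttn they were, between soleus and EDL, Csrp3 (-0.17 to 1.01 over single libraries, the lowest without soleus 3), Myom1 (-0.12 with the label code block, -0.12, -0.042 and -0.026 without EDL 1, 2 or 3, 0.33 without EDL 5, -0.067 without soleus 1, -0.17 in 38-day mice) and Myom3 (-0.011 in 38-day mice), and, between psoas and EDL, Obsl1 (-0.018 without EDL 1, -0.16 to 0.41 over single libraries, the lowest without psoas 2) and Myom3 (0.23 without EDL 4 and 5).

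With coding length in place of exon length, the mean ratio to Ttn moved from 3.23 to 5.53 for Tcap, 1.11 to 4.62 for Csrp3, 0.0253 to 0.0358 for Obsl1, 0.418 to 0.790 for Myom1, 0.515 to 0.939 for Myom2, 2.71 to 9.38 for Fhl1, 0.322 to 0.408 for Myom3 and 0.0365 to 0.0749 for Fhl2, so that Fhl1 passed Tcap. RLE size factors and no filter on low counts changed no call of a member. The 3 soleus libraries limit what could be called. The 2% recovery of 2-fold changes is that of simulated counts with fewer changed genes. Counting error is largest for Fhl2, with 41 reads in EDL 3.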
